A study of Bombyx mori with 3 samples.

Results

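The probes described here are those of a silkworm (Bombyx mori) oligonucleotide array whose annotation names apoptosis, caspases, programmed cell death, Bcl-2, Bax, survivin, Apaf or death-associated proteins, with autophagy and ribosomal entries left out. The rule used only the annotation text and found 46 of the 23229 gene probes. Of these, 5 carry a Bombyx mori gene ID or description and the rest are named after their best hit in another species, among them 7 from Danio rerio, 5 from Homo sapiens, 5 from Apis mellifera, 3 from Manduca sexta and 2 from Drosophila melanogaster. A name taken from such a hit is therefore a likeness and not an established silkworm function. The 3 gene IDs (Iap, LOC693078 and LOC778501) were all found in the RefSeq gene table.

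Apoptosis is the ordered self-destruction of a cell by caspases, proteases that are made as inactive precursors and cut one another into activity. An initiator caspase is activated on the adaptor Apaf-1, inhibitor of apoptosis proteins (IAPs) bind caspases and hold them back, and Bcl-2 family proteins act upstream at the mitochondrion. In moths and butterflies programmed cell death also remodels the fat body, the insect counterpart of liver and adipose tissue, and other larval tissues at metamorphosis.

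Phoxim is an organophosphate insecticide that blocks acetylcholinesterase. The phoxim group was mixed-sex p50 larvae on day 3 of the fifth instar, reared on mulberry leaves that had been soaked briefly in a 4 µg/mL phoxim solution. The control group was mixed-sex p50 larvae of the same stage, whose leaves had been treated with water. Fat body was dissected after 24 h in experiments of 30 larvae, and 1 phoxim and 1 control RNA of the same replicate number were hybridised together on each of 3 two-colour arrays, labelled as biological replicates. Several larvae may contribute to an RNA, so the spread between arrays is that between experiments and not between animals. In RNA of a whole tissue, fewer cells of a type and less RNA per cell cannot be told apart.

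The labels state that dyes were not swapped, whereas the header in the file of replicate 2 gives Cy3 for phoxim RNA and Cy5 for control RNA, opposite to replicates 1 and 3. The order in the files was followed. The Hex control had median Cy3 intensities of 70095.5, 53961.0 and 75821.5 on replicates 1, 2 and 3, with 9.0, 5.0 and 10.0 in Cy5, so the dye columns themselves were not exchanged. Of 8 control RNAs (Y1 to Y8), 7 were brighter in the other dye on replicate 2 than on replicate 1. Y6, for example, had median intensities of 3894.5, 54017.0 and 4601.0 in Cy5 and 56811.0, 1664.0 and 48596.5 in Cy3. In the order of the files the deposited log2 ratios of Y6 were -3.61, -4.92 and -3.54, and 7 of the 8 kept 1 sign on all arrays, Y5 (1.76, -0.07 and 1.57) being the exception. These control spots follow the order of the files and not that of the labels. The labelled order is kept as an alternative, and each tested death-related probe is also given under it and without replicate 2. Across the 6154 tested probes the log2 ratios of replicates 1 and 2 correlated at r = 0.03, those of replicates 1 and 3 at r = 0.35 and those of replicates 2 and 3 at r = 0.27, a description over probes that share their arrays. Probes annotated as fat body proteins (storage proteins, lipoproteins and vitellogenin) checked the tissue label. Of 54 such probes, 34 were tested and 29 were above background in both RNAs on all arrays. The summed normalized level of the 34 was 513168 to 730406 in phoxim RNA and 433985 to 632068 in control RNA. Some of the brightest, such as sw06703, were saturated. The match was by wording and also took in, for example, a vitellogenin receptor (sw12049).

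A spot counted as above background where its intensity passed the 95th percentile of negative control spots of that array and dye. A probe was tested where, on each of the 3 arrays, at least 1 of its RNAs did so, which need not be the same RNA on every array. Of the 46 death-related probes, 19 (41.3%) were tested, against 6154 (26.5%) of all gene probes. Both RNAs were above background on all arrays for 9 of them. Another 9 were above background in at least 1 RNA without reaching that rule, and 18 in no RNA on any array. Death-related probes were above background in 24, 15 and 26 of 46 cases in the phoxim RNAs of replicates 1, 2 and 3, against 18, 14 and 19 in the control RNAs. The shares were 52.2%, 32.6% and 56.5% in phoxim RNA and 39.1%, 30.4% and 41.3% in control RNA. Over all gene probes they were 43.2%, 18.9% and 44.4% in phoxim RNA and 24.9%, 27% and 27.2% in control RNA, so the low value in the phoxim RNA of replicate 2 was common to the whole array. The background itself differed by dye, at 46.9, 101.0 and 31.8 intensity units in Cy5 and 188.3, 307.1 and 175.7 in Cy3, so a difference in detection between the RNAs was not read as a difference in expression.

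**Figure D1:**
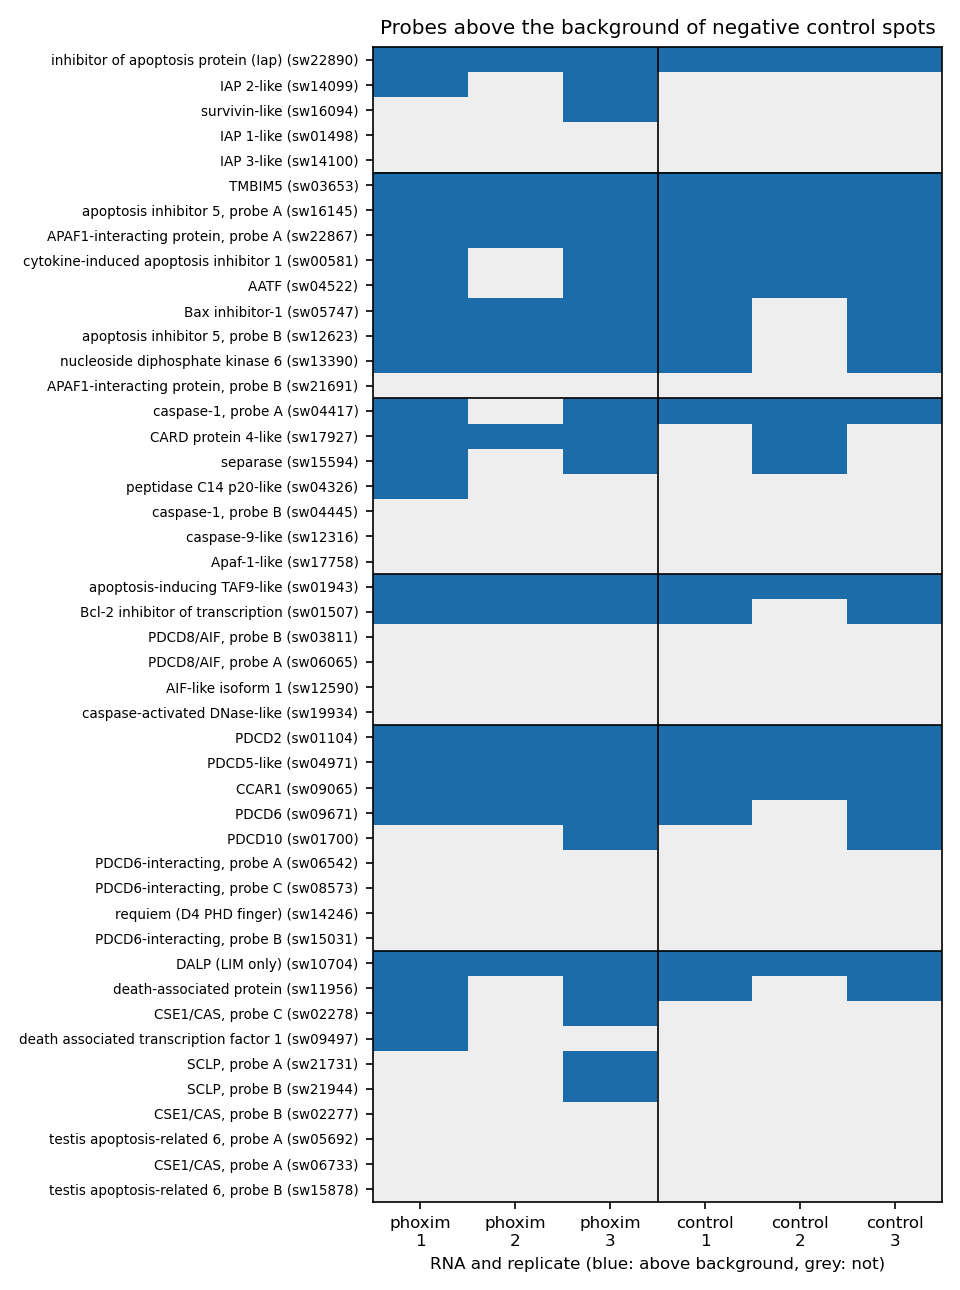
Detection of the 46 death-related probes (rows, grouped by role, with probe names) in the phoxim RNAs (left 3 columns) and control RNAs (right 3 columns) of replicates 1 to 3. Blue cells are above the 95th percentile of negative control spots, and 18 rows are grey throughout, among them the caspase-9-like, Apaf-1-like and caspase-activated DNase-like probes.

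Differences are given as log2 ratios of phoxim over control. The SD beside a mean is that of the probe's own 3 arrays. Intervals and p-values come from limma's moderated variance, which is drawn towards that of all tested probes. They therefore do not follow from the SD. Levels are normalized intensities per RNA in arbitrary units, on which negative control spots had medians of 72 to 82. They are compared between RNAs of 1 probe, or as sums over the same probes of a marker list. The brightest probes contribute most to such sums. With limma over the 6154 tested probes, 0 death-related probes passed an adjusted p of 0.05, and neither did any other probe (0%). The lowest adjusted p on the array was 0.28. At an unadjusted p under 0.05 limma counted 673 probes in all. Death-related probes made up 4 of those, all higher in phoxim RNA, which is 21.1% of the 19 tested against a background of 6.13%. The 4 include both probes of apoptosis inhibitor 5, which may read 1 gene. Its probe B passed the filter on replicate 2 through phoxim RNA alone, so the share is not a test of the group. No tested death-related probe was lower in phoxim RNA at that unadjusted threshold, where the background was 4.81%. The count of 4 at an unadjusted p under 0.05 was 4 without replicate 1, 1 without replicate 2 and 1 without replicate 3. It was 2 with a dye term in the limma model, 1 under the labelled order, 6 with median centring and 7 with the deposited ratios. Over all tested probes the limma count was 708, 691 and 332 without replicates 1, 2 and 3, against 673 with all arrays. That count was 376 with a dye term, 297 under the labelled order, 788 with median centring and 838 with the deposited ratios.

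Signs were uneven among the 19. The mean ratio was above 0 for 18 (94.7%) against 50.3% of all tested probes. Of the 19, 8 (42.1%) were higher in phoxim RNA on all 3 arrays against 18.2%, and 0 were lower on all 3 against 17.1%. The levels of the phoxim and control RNAs did not overlap for 4, all with phoxim above control, against 7.67% of tested probes. Their median ratio was 0.29 against 0.00 for all tested probes, and it was 0.29, 0.69 and 0.41 on replicates 1, 2 and 3 against 0.13, -0.06 and 0.00. The number of probes above 0 was 10, 16 and all 19 of 19 on those arrays, so replicate 1 was near an even split. Of the 19, the control RNA was above background on fewer than 3 arrays for 7, and the phoxim RNA for 4. Among the 8, CARD protein 4-like (sw17927) and apoptosis inhibitor 5 probe B (sw12623) passed the filter on some arrays through phoxim RNA alone. These counts describe probes that passed a brightness filter and were chosen by annotation, and they are not a test of the group.

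The 9 probes with both RNAs above background on all arrays had a median ratio of 0.55 against 0.01 for the 3800 such probes, all 9 means were above 0 against 50.8%, 6 of the 9 were higher in phoxim RNA on all arrays against 18.8%, and the levels of 3 did not overlap against 7.47%. At the adjusted threshold limma called 0 of the 9 (0%). Without replicate 2 the median of the 19 was 0.34 and 15 means were above 0. Under the labelled dye order of replicate 2 the median was 0.08, 13 means were above 0, and 2 probes were higher in phoxim RNA on all arrays against 15.4% of all tested probes. Centring each array on its median in place of the loess fit put 12 of the 19 higher on all arrays against 24.6%, with 68.7% of all tested probes above 0.

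**Figure D2:**
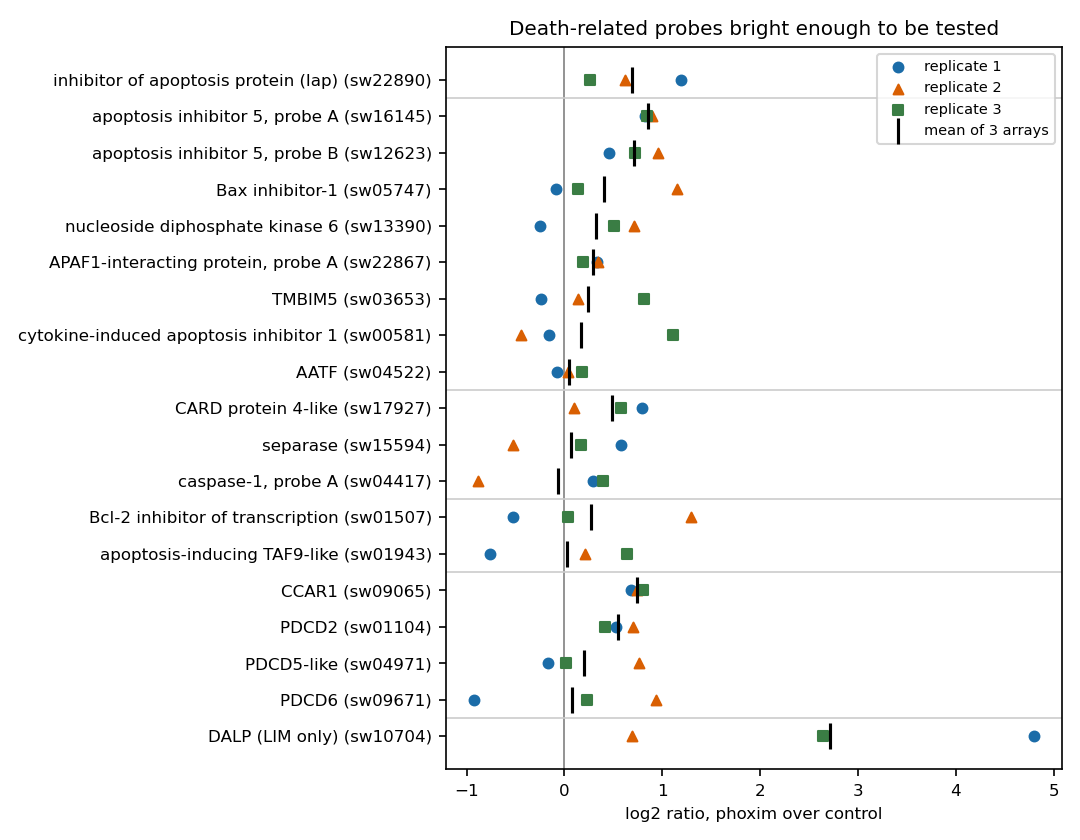
Log2 ratio of phoxim over control on each array (blue circles, replicate 1; orange triangles, replicate 2; green squares, replicate 3) for the 19 tested death-related probes, with black bars at the mean and grey lines between roles. Apoptosis inhibitor 5 probe A and CCAR1 have nearly coincident points, while the DALP points spread between 0.69 and 4.80.

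IAP family proteins carry baculoviral IAP repeats with which they bind caspases, and 5 probes fell in this group. One of them was tested, the silkworm gene Iap (probe sw22890). Iap had normalized levels of 1500, 1106 and 1403 in the phoxim RNAs of replicates 1, 2 and 3, against 658, 718 and 1174 in the control RNAs. The phoxim RNA was the higher of the pair on every array, although the control level of replicate 3 exceeded the phoxim level of replicate 2, so the groups overlapped. The mean log2 ratio of Iap was 0.69 ± 0.47 (SD, n = 3), with a 95% interval of -0.04 to 1.42 and an adjusted p of 0.47 in limma. Its mean was 0.72 without replicate 2, 0.44 without replicate 1 and 0.27 under the labelled dye order.

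The other IAP probes gave little signal. The IAP 2-like probe (sw14099) was above background in the phoxim RNA of replicates 1 and 3 and in no control RNA. Survivin is a small IAP best known from cell division, and its silkworm likeness (sw16094) was above background only in the phoxim RNA of replicate 3. The IAP 1-like (sw01498) and IAP 3-like (sw14100) probes were above background in none. Deposited intensities of the IAP 2-like probe were 73, 116 and 47 in phoxim RNA and 81, 25 and 82 in control RNA, and on replicates 1 and 3 the control value was the higher number yet lay under the higher Cy3 background.

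Proteins outside the IAP family that are named as apoptosis inhibitors made up 9 probes. Of these 8 were tested, and all 8 means were above 0 (0.05 to 0.85), against 50.3% of all tested probes. On replicate 2, Bax inhibitor-1, apoptosis inhibitor 5 probe B and nucleoside diphosphate kinase 6 passed the filter through phoxim RNA alone. Cytokine-induced apoptosis inhibitor 1 and AATF passed it there through control RNA alone. The share above 0 is therefore not a test of these probes. Among the 8, 3 were higher in phoxim RNA on all arrays, against 18.2%, and 2 of those 3 are the apoptosis inhibitor 5 probes. Several of the 8 turned sign in other settings. Apoptosis inhibitor 5, a nuclear protein that in mammalian cells protects against death after growth factor withdrawal, was present as 2 probes made for different gene models. Probe A (sw16145, gene model Bmb038577) had levels of 714, 997 and 776 in phoxim RNA, against 403, 534 and 434 in control RNA. Each phoxim level was above every control level. Its mean ratio was 0.85 ± 0.04 (SD, n = 3), 1.81-fold, with an interval of 0.22 to 1.49 and an adjusted p of 0.39 in limma. A spread as small was found in 0.52% of tested probes and a mean as high in 6.13%.

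Apoptosis inhibitor 5 probe B (sw12623, Bmb013295) had levels of 334, 443 and 503 in phoxim RNA, against 243, 227 and 306 in control RNA. The groups again did not overlap, but the control RNA of replicate 2 was not above background. Its mean ratio was 0.71 ± 0.25 (SD, n = 3) with an interval of 0.05 to 1.38 and an adjusted p of 0.44 in limma. The probes therefore pointed the same way on every array. Whether they read 1 gene or a pair of genes is not settled by the annotation, so they may not be independent. The counts over death-related probes nevertheless include each of them. Without replicate 2 the means were 0.83 for probe A and 0.59 for probe B, and under the labelled order 0.25 and 0.07.

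APAF1-interacting protein binds Apaf-1 in mammals and is also an enzyme of methionine salvage. Probe A (sw22867) had levels of 2940, 3651 and 4071 in phoxim RNA, against 2333, 2879 and 3565 in control RNA. The ratio was above 0 on each array and the groups overlapped. Its mean was 0.29 ± 0.08 (SD, n = 3), an interval of -0.35 to 0.93, with an adjusted p of 0.72 in limma. Only 2.4% of tested probes had as small a spread, while 26.7% had as high a mean. The mean was 0.26 without replicate 2 and 0.06 under the labelled order. Probe B (sw21691), made for another gene model of the same contig, was above background in no RNA, with deposited intensities of 19, 191 and 28 in phoxim RNA and 118, 0 and 169 in control RNA.

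Bax inhibitor-1 and TMBIM5 belong to a family of multi-pass membrane proteins, of the endoplasmic reticulum and the mitochondrion, that restrain cell death in mammals. Bax inhibitor-1 (sw05747) had levels of 305, 488 and 348 in phoxim RNA, against 324, 221 and 317 in control RNA. Replicate 2 alone set them apart, its control RNA was not above background, and the mean of 0.40 ± 0.66 (SD, n = 3) had an adjusted p of 0.69 in limma. It was 0.02 without replicate 2 and -0.37 under the labelled order. TMBIM5 (sw03653, LOC693078) had levels of 603, 551 and 863 in phoxim RNA, against 710, 501 and 494 in control RNA. Here replicate 3 held the widest gap and replicate 1 ran the other way, for a mean of 0.24 ± 0.53, with 0.28 without replicate 2 and 0.14 under the labelled order.

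Cytokine-induced apoptosis inhibitor 1 (sw00581) is a protein of cytosolic iron-sulfur cluster assembly. Its levels were 374, 328 and 672 in phoxim RNA, against 418, 447 and 311 in control RNA. Phoxim was the higher on replicate 3 only, and on replicate 2 it was not above background. The mean was 0.17 ± 0.83 (SD, n = 3), with 0.48 without replicate 2 and 0.47 under the labelled order. Nucleoside diphosphate kinase 6 (sw13390), whose human counterpart is also annotated as an inhibitor of p53-induced apoptosis, had levels of 262, 341 and 444 in phoxim RNA and 312, 208 and 311 in control RNA. Its ratio was above 0 on replicates 2 and 3, but the control RNA of replicate 2 was not above background. The mean was 0.32 ± 0.51, with 0.13 without replicate 2 and -0.15 under the labelled order. AATF (sw04522), a transcription-associated protein that opposes apoptosis in mammalian cells, had levels of 247, 310 and 273 in phoxim RNA and 262, 302 and 240 in control RNA, which lay within 0.18 of equality on the log2 scale on every array. The phoxim RNA of replicate 2 was not above background, and the mean of 0.05 ± 0.13 was 0.05 without that array and 0.02 under the labelled order. The limma interval for AATF was -0.60 to 0.69, so a difference of that size in either direction was not excluded by these arrays.

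**Figure D3:**
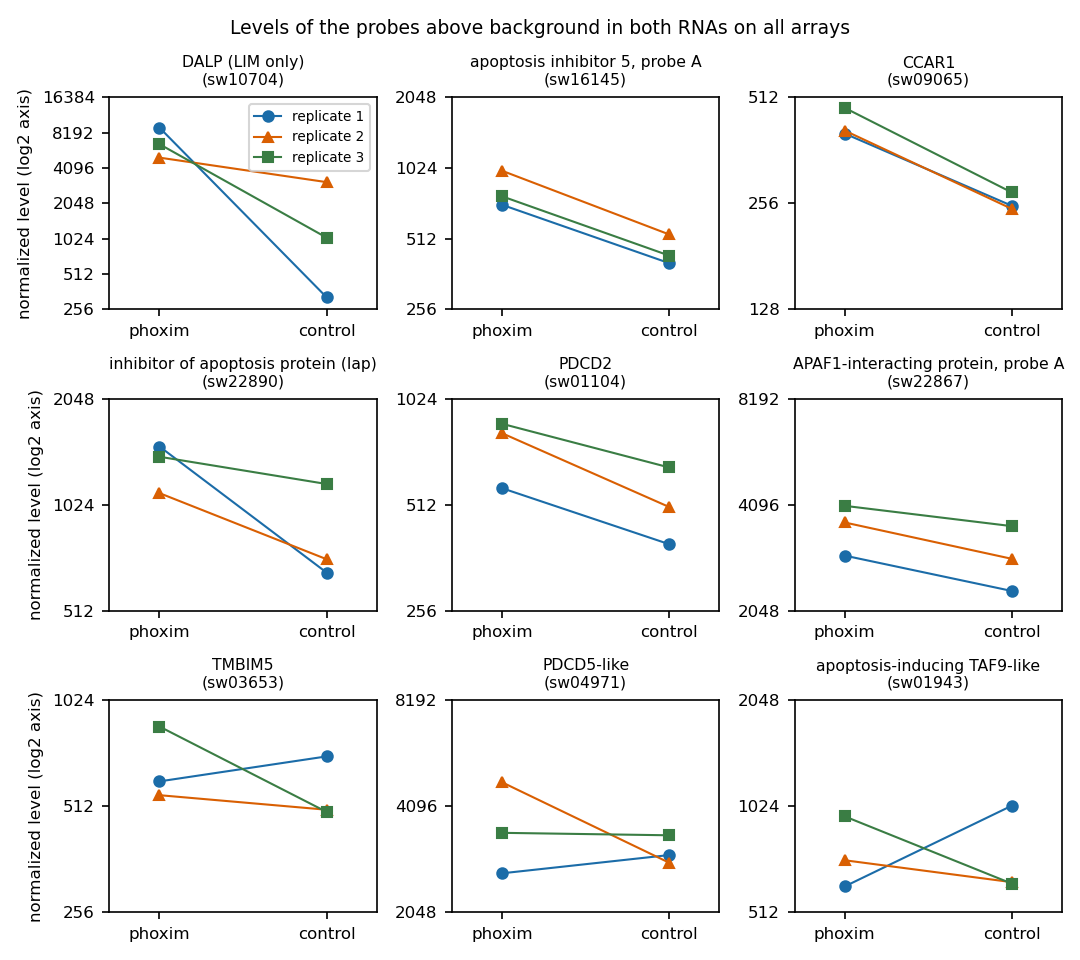
Normalized levels on a log2 axis in phoxim RNA (left) and control RNA (right) of each panel, with a line joining the RNAs of 1 array, for the 9 death-related probes above background in both RNAs on all arrays. In the panels of apoptosis inhibitor 5 probe A and CCAR1 the 3 lines are nearly parallel, whereas those of TMBIM5, PDCD5-like and TAF9-like cross.

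Caspases and the proteins of the apoptosome made up 7 probes, of which 3 were tested and 3 were above background in no RNA. Of the 3 tested, 2 are not caspases. Caspase-1 of the silkworm is an effector caspase. Probe A (sw04417) had levels of 753, 336 and 800 in phoxim RNA, against 617, 617 and 610 in control RNA. Phoxim was higher on replicates 1 and 3 and lower on replicate 2, where it was not above background. The mean ratio was -0.07 ± 0.70 (SD, n = 3) with an interval of -0.89 to 0.76 and an adjusted p of 0.97 in limma. Without replicate 2 it was 0.34, and under the labelled dye order 0.52, so its sign turned with that array. Caspase-1 probe B (sw04445) was above background in no RNA, with deposited intensities of -3, 28 and 0 in phoxim RNA and 32, 0 and 28 in control RNA.

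The caspase-9-like initiator (sw12316) and the Apaf-1-like adaptor (sw17758) were above background on no array in either RNA. A probe likened to a bacterial caspase-type peptidase of family C14 (sw04326) was above background in the phoxim RNA of replicate 1 alone. A probe resembling caspase recruitment domain protein 4 (sw17927), in mammals a cytosolic receptor for bacterial cell wall fragments, had levels of 203, 383 and 235 in phoxim RNA and 117, 358 and 158 in control RNA. Its ratio was above 0 on all 3 arrays, its mean was 0.49 ± 0.36 (SD, n = 3) and its adjusted p was 0.57 in limma. The control RNA was above background on replicate 2 only, where the ratio was 0.10. Without that array the mean was 0.68, and under the labelled order 0.42. Separase (sw15594), a protease of sister chromatid separation entered here because its description calls it caspase-like, had levels of 156, 152 and 154 in phoxim RNA and 105, 219 and 137 in control RNA, with a mean of 0.07 ± 0.56. It was above background in phoxim RNA on replicates 1 and 3 and in control RNA on replicate 2, so every ratio set a detected against an undetected RNA. The mean was 0.37 without replicate 2 and 0.43 under the labelled order.

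Downstream effectors act at the nucleus and the mitochondrion. Of 6 such probes 4 were above background in no RNA, namely the caspase-activated DNase-like probe (sw19934), named for an enzyme that cuts chromatin in dying cells, and 3 probes of apoptosis-inducing factor (sw12590, sw06065 and sw03811), a mitochondrial flavoprotein. Bcl-2 inhibitor of transcription (sw01507), a mitochondrial peptidyl-tRNA hydrolase, had levels of 305, 468 and 485 in phoxim RNA and 442, 191 and 472 in control RNA. Its ratios of -0.53, 1.29 and 0.04 gave a mean of 0.27 ± 0.93 (SD, n = 3). The control RNA of replicate 2 was not above background, and the mean was -0.25 without that array and -0.59 under the labelled order. The TAF9-like probe (sw01943), whose human counterpart is a kinetochore protein first annotated as apoptosis-inducing, had levels of 607, 720 and 959 in phoxim RNA and 1029, 624 and 618 in control RNA. Replicate 1 lay below 0 and the other two above, and the mean was 0.03 ± 0.72, with -0.06 without replicate 2 and -0.11 under the labelled order.

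Genes named for programmed cell death, and regulators shared with the cell cycle, made up 9 probes, of which 4 were tested. Of the 4, 2 were higher in phoxim RNA on all arrays, against 18.2% of all tested probes. CCAR1 (sw09065), cell division cycle and apoptosis regulator 1, is a coactivator of transcription in mammals. Its levels were 404, 412 and 478 in phoxim RNA, against 252, 247 and 275 in control RNA. The groups did not overlap and both RNAs were above background on all arrays. The control RNA only just passed on 2 arrays. Its deposited intensities of 197 and 104 on replicates 1 and 2 compare with backgrounds of 188.3 and 101.0. The mean ratio of CCAR1 was 0.74 ± 0.06 (SD, n = 3), 1.67-fold, with an interval of 0.10 to 1.38 and an adjusted p of 0.43 in limma. As small a spread was found in 1.09% of tested probes. The mean stayed at 0.74 without replicate 2 and was 0.25 under the labelled order.

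PDCD2 (sw01104), a factor of ribosomal protein handling in flies and mammals, had levels of 571, 818 and 870 in phoxim RNA, against 396, 505 and 654 in control RNA. Phoxim was the higher on every array while the groups overlapped. Its mean of 0.55 ± 0.14 (SD, n = 3) had an interval of -0.10 to 1.19 and an adjusted p of 0.51 in limma, and it was 0.47 without replicate 2 and 0.08 under the labelled order.

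PDCD5-like (sw04971, LOC778501), whose human counterpart promotes apoptosis, had levels of 2645, 4794 and 3446 in phoxim RNA, against 2980, 2834 and 3391 in control RNA. Replicate 2 alone stood out, and the mean was 0.20 ± 0.49 (SD, n = 3), or -0.07 without that array and -0.30 under the labelled order. PDCD6 (sw09671), a calcium-binding partner of the membrane remodelling protein ALIX, had levels of 285, 454 and 452 in phoxim RNA and 540, 237 and 387 in control RNA. Its ratios were -0.92, 0.94 and 0.23, for a mean of 0.08 ± 0.94, and the control RNA of replicate 2 was not above background. Without that array the mean was -0.35, and under the labelled order -0.54. All 3 probes of PDCD6-interacting protein (sw06542, sw15031 and sw08573) and the requiem probe (sw14246) were above background in no RNA, and PDCD10 (sw01700) was so in both RNAs of replicate 3 only.

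**Figure D4:**
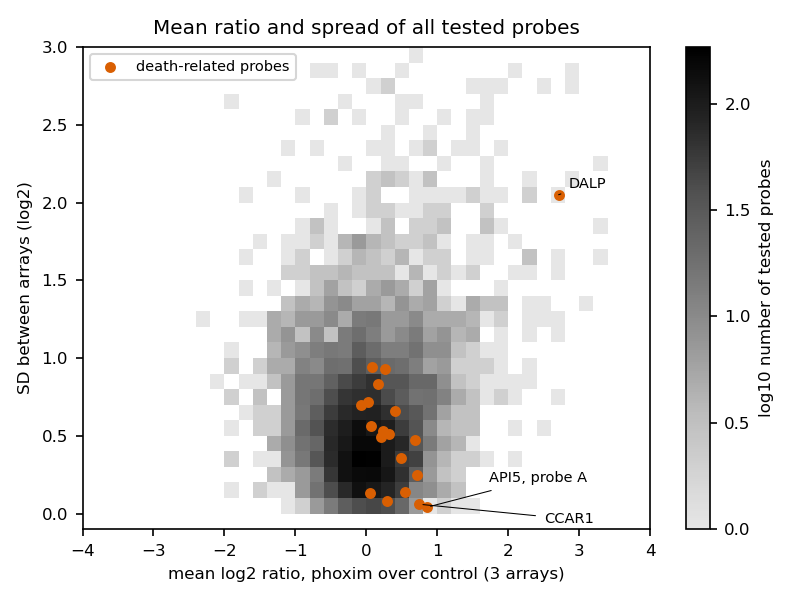
Mean log2 ratio of phoxim over control (horizontal) against the SD between the 3 arrays (vertical, log2) for all tested probes as shaded bins of counts on a log10 scale, with the 19 death-related probes in orange. CCAR1 and apoptosis inhibitor 5 (API5) probe A lie at the lower edge of the spread with means of 0.74 and 0.85, DALP lies at the upper right with 2.71 and 2.05, and 7 probes fall outside the axes.

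The remaining 10 probes are named death-associated or apoptosis-related without a place in the caspase pathway, and 1 of them was tested. That probe (sw10704, gene model Bmb001188) resembles DALP, the death-associated LIM-only protein first described in dying intersegmental muscles of the moth Manduca sexta. DALP had levels of 9054, 5027 and 6546 in phoxim RNA, against 325, 3109 and 1047 in control RNA. Each phoxim level was above every control level, and on the log2 scale the control RNAs differed among themselves more than the phoxim RNAs did. The ratios were 4.80, 0.69 and 2.64, with a mean of 2.71 ± 2.05 (SD, n = 3), 6.56-fold. In limma the interval was 1.05 to 4.38 and the adjusted p was 0.33. That interval rests on the moderated variance and not on the SD of 2.05 alone. It does not show that the spread of these 3 ratios excludes 0. A mean as high was found in 0.162% of tested probes, while 98.8% had a spread as small or smaller. Without replicate 2 the mean was 3.72, without replicate 1 it was 1.67, and under the labelled order 2.25.

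Many muscle markers, though not all, moved with the DALP probe. Of 59 probes whose annotation matched muscle protein names 29 were tested. Their median ratios were 2.43, 0.07 and 0.52 on replicates 1, 2 and 3, the same order of arrays as DALP. Of the 29, 15 were higher in phoxim RNA on all arrays, against 18.2% of all tested probes, and 1 was lower on all, against 17.1%. The list was matched by wording, and the probe lower on all arrays (sw17482) is named cofilin/tropomyosin-type. It also took in likenesses of myosin-5A (sw16346) and myosin-9 (sw03159), and probes named after a Cryptosporidium myosin heavy chain (sw11877 and sw15735). On replicate 2, troponin T (sw22863) and troponin C (sw00203) were among the probes lower in phoxim RNA. The summed level of the 29 on replicates 1, 2 and 3 was 175761, 111653 and 103946 in phoxim RNA. In control RNA it was 28914, 103168 and 42799. Muscle LIM protein (sw21951), a LIM protein of the sarcomere, had levels of 7642, 7259 and 5017 in phoxim RNA and 503, 5297 and 1381 in control RNA. Troponin I (sw14071), an inhibitory subunit of the thin filament, had 29906, 15389 and 22712 in phoxim RNA and 449, 11806 and 4186 in control RNA. For DALP, as for muscle LIM protein and troponin I, the control RNA of replicate 1 was the lowest and that of replicate 2 the highest of the controls. Muscle RNA in the dissected tissue, and its part in the DALP result, was not tested.

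**Figure D5:**
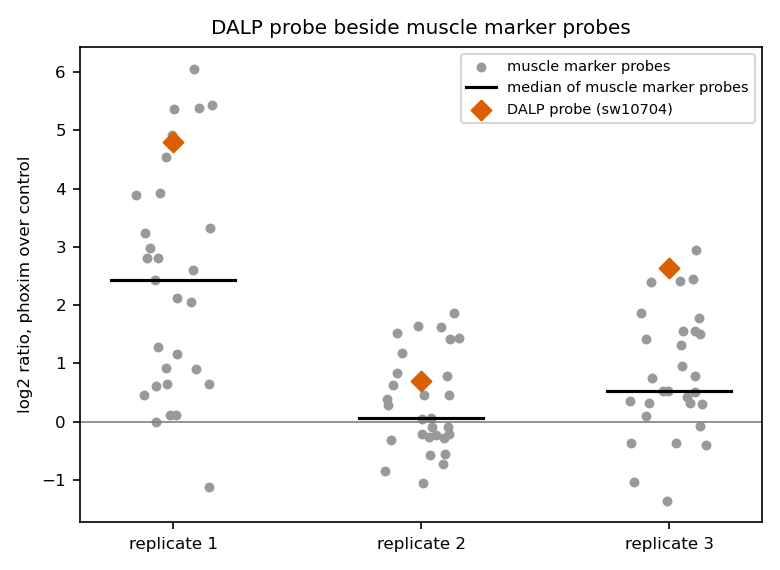
Log2 ratio of phoxim over control for the DALP probe (orange diamond) and the 29 tested muscle marker probes (grey points, spread sideways for visibility, with the median as a black bar) on each array. DALP, at 4.80, 0.69 and 2.64, is within the range of the muscle probes on every array and above their median of 2.43, 0.07 and 0.52.

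Fat body markers (34 of 54 tested) had median ratios of 0.75, -0.11 and 0.25, with 8 higher and 1 lower in phoxim RNA on all arrays, and so shared that order of arrays. Hemocyte markers (13 of 47 tested) had median ratios of 0.33, -0.29 and 0.01, again in that order. Their summed levels were 17290 to 20294 in phoxim RNA and 16363 to 20263 in control RNA. They too were matched by wording, which took in disintegrin and metalloproteinase probes (sw15836 and sw02458), so not all are hemocyte markers. Midgut markers (14 of 97 tested) had medians of 0.16, -0.05 and 0.54 and summed levels of 92966 to 140597 in phoxim RNA and 99925 to 143256 in control RNA. Of these 14, 4 are protease inhibitors matched by wording, and without them, a choice made after seeing the data, the medians were 0.07, -0.18 and 0.28 and the summed levels 10634 to 13925 in phoxim RNA and 10157 to 13867 in control RNA. The 2 tested of 10 silk gland probes had medians of 0.41, -0.34 and -0.41. The part of cell composition in the values of the other death-related probes was not tested.

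Other death-associated probes were faint. SCLP, a small leucine-rich protein named death-associated in Manduca sexta, was represented by 2 probes (sw21731 and sw21944), each above background in the phoxim RNA of replicate 3 only. The probe named death-associated protein (sw11956) had deposited intensities of 493, 151 and 493 in phoxim RNA and 1119, 9 and 384 in control RNA. It was above background in both RNAs of replicates 1 and 3 and in neither of replicate 2, and the ratios of -1.04 and 0.39 on those arrays had opposite signs. Of 3 probes for CSE1, an exporter of importin alpha also called cellular apoptosis susceptibility protein, probe C (sw02278) was above background in the phoxim RNA of replicates 1 and 3, and probes A (sw06733) and B (sw02277) in none. Death associated transcription factor 1 (sw09497) was so in the phoxim RNA of replicate 1, and the 2 testis apoptosis-related probes (sw05692 and sw15878) in none.

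Other cell death genes, collected by a wider list of terms that leaves out the 46, gave 84 probes, of which 25 were tested. The list takes in receptor signalling, clearance of dead cells, cytochrome c, cathepsins and calpains, and 7 of the 25 were there by wording alone (trafficking proteins, for example). In limma 0 passed the adjusted threshold (0% of all tested probes), and at an unadjusted p under 0.05 there were 0 higher and 2 lower. The count higher in phoxim RNA on all arrays was 3 (12%) against 18.2%, and the count lower was 5 (20%) against 17.1%. Their median ratio was -0.17 against 0.00 for all tested probes, and without the wording matches it was -0.19 over 18 probes. Among the 18 probes of the wider list with both RNAs above background on all arrays, the median was 0.01, the same as for all such probes, 9 means were above 0, and 3 were higher and 2 lower in phoxim RNA on all arrays.

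FAS-associated factor 1 is a ubiquitin-binding protein that joins Fas to the death machinery in mammals. Its probe sw04359 had levels of 352, 347 and 199 in phoxim RNA, against 823, 442 and 726 in control RNA. The groups did not overlap, against 6.03% of tested probes with phoxim below control, although the phoxim RNA was above background on 2 arrays only. The mean of this FAF1 probe was -1.14 ± 0.76 (SD, n = 3) with an adjusted p of 0.39 in limma. A further FAF1 probe (sw15656) had ratios of -1.46, 0.14 and -2.26, and Fly Fas-associated factor (sw04022) had -0.07, -0.31 and -0.44. These probes shared a lower phoxim level on replicates 1 and 3 and differed in its size.

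Cathepsin D (sw11819, Cathd), a lysosomal aspartic protease, had levels of 4786, 1776 and 1562 in phoxim RNA, against 4933, 2176 and 7416 in control RNA. Its mean of -0.86 ± 1.21 (SD, n = 3) rested on replicate 3, and the adjusted p was 0.54 in limma. CED-6 (sw08189), an adaptor for engulfment of dead cells in Caenorhabditis elegans, had 636, 384 and 345 in phoxim RNA and 667, 615 and 570 in control RNA, with a mean of -0.49 ± 0.37. The likeness of the IAP-associated factor Viaf1 (sw09793) had ratios of -0.04, -0.57 and -0.06. In the other direction, BRE (sw09363), a TNF receptor modulator and subunit of a deubiquitinating complex, had 486, 828 and 681 in phoxim RNA and 343, 429 and 558 in control RNA. The mean for BRE was 0.58 ± 0.34 with an adjusted p of 0.51 in limma.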

How the data were processed

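Per the file headers, each array file holds Cy5 and Cy3 intensity values and a ratio of phoxim over control. The intensities were used as deposited and, as some lie below 0, were taken to be already background-subtracted. The scanner used and the authors' normalization of the ratio are both not given in the sources used here. Row by row, the deposited log2 table equals the log2 of those ratios (largest difference 5.0e-09, column medians 0.01, -0.02 and 0.05), so its scale and direction are known and its centring is not.

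The intensities went through normexp (offset 50) and loess within arrays (control spots at weight 0), and Aquantile gave levels per RNA. The offset understates differences of dim probes. Ratios were tested against 0 with limma 3.58.1 (R 4.3.3), two-sided, with Benjamini-Hochberg adjustment over 6154 probes and a threshold of 0.05. The array pairs the RNAs and is the block. The number of arrays limits the precision. No death-related spot was saturated (0 at 99% of the maximum or more). The fit was checked on simulated data without the normexp step and with changes larger than the mean ratios of all tested death-related probes except DALP. That check does not cover differences as small as theirs.

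Every tested death-related probe is named with its values, and every other one with its detection. From the wider list, the 6 probes with the lowest p and the same sign on all arrays are named, and sw15656 was added after its values were seen. The members and lists were chosen with earlier results of these data known. The design had foreseen separate background columns. Counts of non-overlapping levels and of signs on all arrays were added after seeing the data.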

Additional observations from a re-analysis of the deposited data

How the results depend on the processing

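No probe passed the adjusted threshold in limma in any alternative run, for all probes, the death-related probes or the wider list (0 throughout, with 297 to 1869 of all probes at an unadjusted p under 0.05). This includes the separate-channel fit with no replicate block. Its mean ratios equal those of the main fit by construction, so its median of 0.29 is not a further check. The number of death-related probes higher on all arrays (8) was 2 under the labelled dye order, 12 with median centring, 11 of 46 with no filter on dim probes (17.4% of all probes), 6 of 9 with the strict filter, and 8 to 16 when 1 array was left out, with 16 without replicate 1. With only 2 arrays to agree the share of all tested probes rose too, to 28.8%, 33.6% and 25.1% without replicates 1, 2 and 3, against 18.2% with all arrays. Their median (0.29) was 0.56 with the deposited ratios, 0.08 under the labelled order, 0.53 with median centring, 0.06 with no filter and 0.55 with the strict filter. It was 0.34 to 0.47 with 1 array left out and 0.28 without the DALP probe. Median centring moved the median of all tested probes to 0.24 and the share above 0 to 68.7%, against 50.3%.

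Signs turned for 11 of the 19 probes in at least 1 setting. Under the labelled order sw01507 was -0.59, sw01943 -0.11, sw04417 0.52, sw04971 -0.30, sw05747 -0.37, sw09671 -0.54 and sw13390 -0.15. Without replicate 2, sw01507 was -0.25, sw01943 -0.06, sw04417 0.34, sw04971 -0.07 and sw09671 -0.35. Without replicate 3, sw00581 was -0.30, sw01943 -0.28, sw03653 -0.05 and sw04522 -0.02, and without replicate 1, sw15594 was -0.18. Median centring gave 0.22 for sw04417 and -0.01 for sw15594, and a dye term -0.08 for sw15594. With 1 array left out, the highest values were 0.48 for sw00581, 0.67 for sw01507, 0.42 for sw01943, 0.11 for sw04522, 0.39 for sw04971, 0.58 for sw09671, 0.37 for sw15594 and 0.47 for sw03653, and the lowest for sw04417 was -0.29. The cause was not tested. Signs held in all settings run for Iap, both apoptosis inhibitor 5 probes, APAF1-interacting protein probe A, CARD protein 4-like, CCAR1, PDCD2 and DALP (1.67 to 3.72). The changes of filter and the separate-channel fit reuse the main ratios, so no sign could turn in those settings. Dim spots limit the caspase and effector probes, most of which gave no usable ratio.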
